A study of Homo sapiens with 14 samples.

Results

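PPP1R11 encodes inhibitor-3 of protein phosphatase 1 (PP1), and its transcript was far below its control level in HEK293T cells that had received either of 2 forms of the microRNA miR-34a. It is described here with 8 other PP1 genes, 9 genes in all of the 63140 in the count table. PPP1R11 was picked for its large and equal fall with both duplexes, so its own differences between groups are given as a description with no test. The other 8 genes were chosen by family, with earlier results of these data known. They are the 3 catalytic subunits PPP1CA, PPP1CB and PPP1CC and the regulatory subunits PPP1R2, PPP1R7, PPP1R8, PPP1R10 and PPP1R12A. All 9 passed the filter on low counts that left 18321 genes to be tested.

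HEK293T is a cell line from human embryonic kidney that expresses the large T antigen of SV40, and all libraries came from RNA taken 24 h after transfection. The miR-34a-RS group (n = 4, replicates 1, 2, 3 and 5) had the miR-34a duplex with rSpacer at guide positions 13 and 14 counted from the 5′ end; rSpacer is abasic, a backbone unit that cannot pair. The miR-34a-WT group (n = 5) had the unmodified duplex, and the AllStars control group (n = 5) had the negative control siRNA sold by Qiagen under that name. All 3 groups thus share the transfection of an RNA duplex, and no untransfected group was analysed here. The design asked how much pairing beyond the seed, in the supplementary region of the guide, matters for target repression. Library totals ran from 22.24 to 36.26 M counts, and mitochondrially encoded genes took 2.19% to 3.302% of them, with the lowest share in miR-34a-RS replicate 2. The 7 markers listed for HEK293T cells were all detected. They summed to 359.7 to 394.0 CPM in miR-34a-RS, 355.9 to 408.1 CPM in miR-34a-WT and 404.2 to 431.7 CPM in control libraries. NEFL was lower in miR-34a-RS (37.13 to 41.46 CPM) and miR-34a-WT (34.94 to 42.11 CPM) than in control (53.54 to 60.87 CPM). NEFM was also lower in both. KRT8 was higher in miR-34a-RS (11.55 to 14.36 CPM) than in control (8.348 to 11.18 CPM) but overlapped control in miR-34a-WT. PAX2, LHX1, KRT18 and VIM overlapped control in both. What part these marker differences have in the results was not tested. The 6 fibroblast markers summed to 25.16 to 34.28 CPM, mostly COL1A1, with COL1A2 at 0 counts in every library. Whether replicates came from separate cultures is not in the labels, so the p-values reflect how far these libraries spread, and that spread may be technical. A bulk library cannot tell fewer cells with a transcript from less of it per cell.

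PP1 removes phosphate from serine and threonine in a large share of the phosphoproteins of a cell. Its catalytic subunits have little choice of substrate by themselves and work in pairs or larger complexes with regulatory subunits that bring them to a place, choose the substrate or block the active site. Newly made catalytic subunits are held with PPP1R7 (SDS22) and PPP1R11 in an inactive assembly complex, which the AAA ATPase p97 takes apart so that other partners can bind. A microRNA guides an Argonaute protein to transcripts that pair with its seed, and this lowers the stability and translation of those transcripts.

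The guide used here is miR-34a-5p, whose locus is chr1:9151735-9151756 (GRCh38.p14, minus strand), and its sequence is shown because every match below is read against it, with the seed (guide positions 2 to 8) in capitals.
miR-34a-5p: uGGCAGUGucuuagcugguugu
The matches sought in 3′ UTRs were CACTGCCA (8mer), CACTGCC (7mer-m8), ACTGCCA (7mer-A1) and ACTGCC (6mer), on the transcript strand, each counted in the longest class it fills. AGCT, the word that pairs with guide positions 13 to 16, was looked for 1 to 15 bases upstream of the partner of position 8.

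PPP1R11 carried a pair of 8mer matches in its 3′ UTR of 1027 bases, at bases 264 to 271 and 363 to 370, so that 91 bases lie between them, and a 6mer at bases 273 to 278. Both 8mers follow with the bases upstream of them, from GRCh38 and GENCODE 29, and so does the single 8mer of PPP1R8, the other member with this class. Capitals mark the seed match and, in the second PPP1R11 window, the AGCT word at a spacing of 2 bases.
PPP1R11, chr6:30069548-30069577, plus strand: cccagtgtcttccttttgttctCACTGCCA
PPP1R11, chr6:30069647-30069676, plus strand: ggttttcaacagtcccAGCTttCACTGCCA
PPP1R8, chr1:27851549-27851578, plus strand: ttgtctctcagtcactgattgcCACTGCCA
PPP1R10 and PPP1CC each had a 7mer-m8, whose windows end in a base other than the A that would make an 8mer.
PPP1R10, chr6:30600720-30600749, minus strand: ggcctgaaagtcacactacatgCACTGCCt
PPP1CC, chr12:110721056-110721075, minus strand: atgtcgttttgaCACTGCCt
The PPP1CC match lies at bases 13 to 19 of a 3′ UTR of 1396 bases, close to the stop codon. PPP1R7 and PPP1R12A had a 6mer only, and PPP1CA, PPP1CB and PPP1R2 had no match in the 3′ UTR, although that of PPP1CB is the longest of the set at 3637 bases. Of the 9 members 6 had some match and 2 an 8mer, beside 35.1% and 6.02% of the 13611 tested genes with an annotated 3′ UTR. Both counts include PPP1R11, which was picked for its fall with miR-34a, so they describe these genes alone. A set of 2 or more 8mers was held by 65 of those genes (0.478%), and an 8mer or 7mer-m8 with the AGCT word by 223 (1.64%). In the coding sequence, PPP1R8 and PPP1R12A each had a 7mer-m8.

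**Figure D1:**
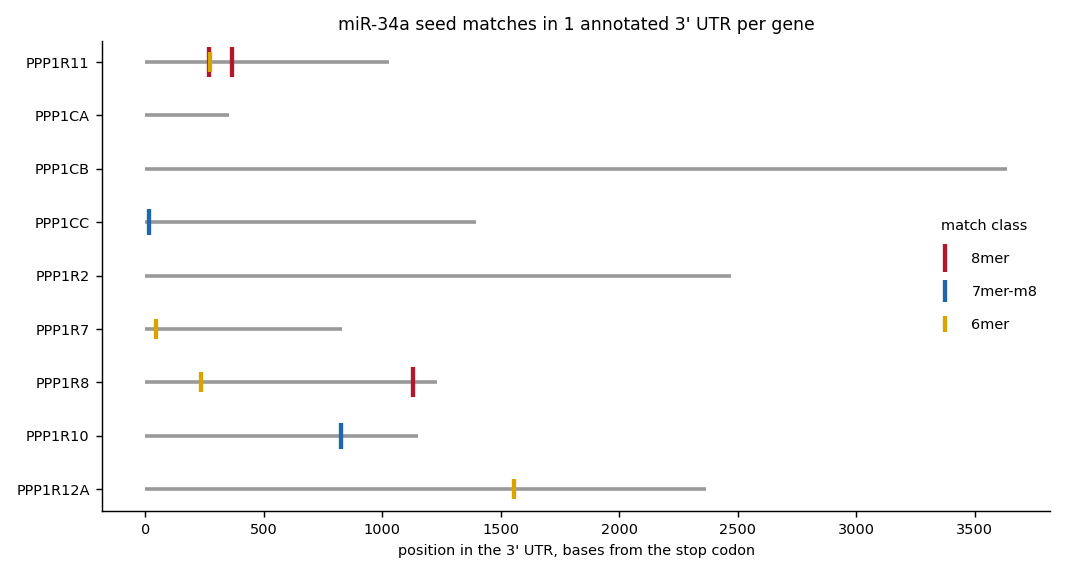
Seed matches of miR-34a along the 3′ UTR of each member (grey line; x axis, bases from the stop codon), coloured by class. PPP1R11 is the member with a pair of 8mers, at bases 264 and 363, and PPP1CA, PPP1CB and PPP1R2 have no match.

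PPP1R11 (ENSG00000204619, chr6:30066709-30070333, plus strand) was at 11.24, 11.56, 11.05 and 10.94 CPM (read counts relative to library size, scaled by TMM factors) in the miR-34a-RS libraries. In miR-34a-WT libraries it was at 10.45, 10.93, 11.33, 10.51 and 10.51 CPM, and in control libraries at 39.86, 39.15, 41.62, 41.74 and 40.61 CPM. The 9 microRNA libraries lay close together and far below all 5 control libraries, and the miR-34a-RS and miR-34a-WT libraries overlapped. The means were 11.2 ± 0.275 CPM (SD, n = 4) in miR-34a-RS, 10.75 ± 0.380 CPM (SD, n = 5) in miR-34a-WT and 40.6 ± 1.12 CPM (SD, n = 5) in control. These correspond to log2 fold changes of -1.86 (SE 0.05) for miR-34a-RS and -1.92 (SE 0.05) for miR-34a-WT against control. In percent of the control level, PPP1R11 fell by 72.4% with miR-34a-RS and fell by 73.5% with miR-34a-WT. Between miR-34a-RS and its unmodified form the difference was 0.06 on the log2 scale (SE 0.06), a value that the choice of PPP1R11 for an equal fall had set near 0. The raw counts behind these values were 352 to 403 in miR-34a-RS, 270 to 340 in miR-34a-WT and 904 to 1406 in control libraries. Counting error for such counts is 4.98% to 5.33% of the level in miR-34a-RS, 5.42% to 6.09% in miR-34a-WT and 2.67% to 3.33% in control. The SD between libraries was 2.45% of the mean in miR-34a-RS, 3.54% in miR-34a-WT and 2.76% in control.

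Ordered from the largest fall among the 18321 tested genes, PPP1R11 stood 11th with miR-34a-RS and 8th with miR-34a-WT. Among the 11259 genes with a mean of at least 5 CPM it stood 3rd with miR-34a-RS and 5th with miR-34a-WT. Among the 65 genes with 2 or more 8mers, the median log2 fold change was -0.21 with miR-34a-RS and -0.20 with miR-34a-WT, and 55.4% passed the test as lower in each comparison. PPP1R11 had the second lowest value of these 65 with miR-34a-RS and the lowest with miR-34a-WT, where the lower quartile was -0.61. Because PPP1R11 was picked for its large fall, its place near the start of each of these orders follows from that choice. RNF39, a gene on the opposite strand that shares 68 exon bases with PPP1R11, was at 0.483 CPM in miR-34a-RS, 0.532 CPM in miR-34a-WT and 0.713 CPM in control, far below PPP1R11 itself. The pseudogenes PPP1R11P1 and PPP1R11P2 had no count in any library.

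The 8 other members showed much smaller differences, in both directions. Against control, 5 of the 8 passed the test with miR-34a-RS, 2 lower and 3 higher, and 6 of the 8 with miR-34a-WT, 2 lower and 4 higher (edgeR quasi-likelihood test, adjusted p under 0.05 after Benjamini-Hochberg correction across 18321 genes). Of all tested genes 34.6% passed with miR-34a-RS, 18.4% lower and 16.2% higher, and 40.2% passed with miR-34a-WT, 21.3% lower and 18.9% higher. The 8 members had control means of 47.68 to 394.0 CPM, while 11259 of the 18321 tested genes had a mean of at least 5 CPM. Small differences pass more readily at high counts. The shares of all tested genes, here and for the lists below, were not matched for level. The 2 comparisons share their control libraries. PPP1CA and PPP1R12A were lower in both, and PPP1R2, PPP1R7 and PPP1R8 were higher in both, with PPP1CB higher in the second. The groups did not overlap for 4 of the 8 with miR-34a-RS, beside 27.0% of all tested genes, and for 5 of the 8 with miR-34a-WT, beside 28.9%. The median log2 fold change of the 8 was 0.10 with miR-34a-RS, where that of all tested genes was -0.01, and 0.11 with miR-34a-WT, where that of all tested genes was -0.02.

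**Figure D2:**
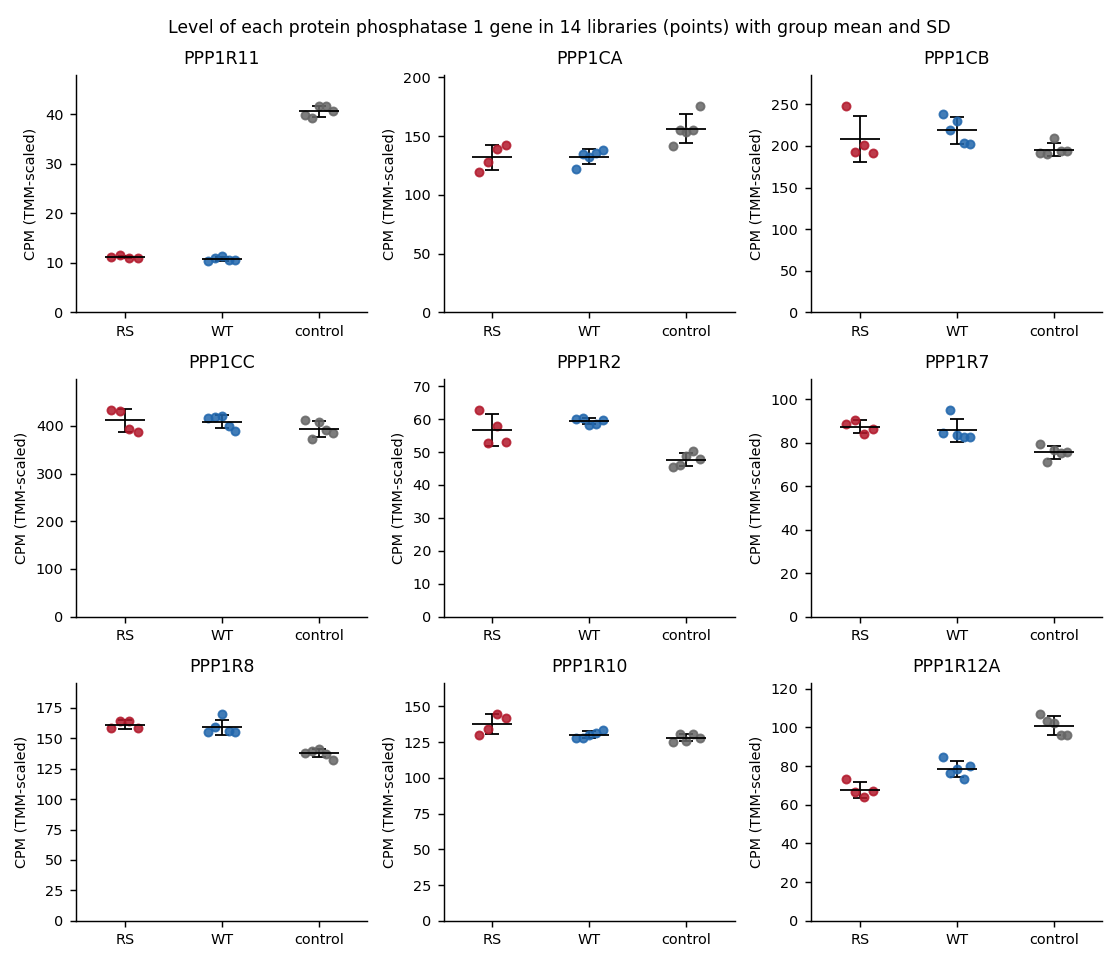
Level of the 9 members in CPM scaled by TMM (y axis, from 0) in miR-34a-RS (RS, red), miR-34a-WT (WT, blue) and AllStars control (grey) libraries; points are libraries, bars the group mean and SD. PPP1R11 falls to 10.45 to 11.56 CPM in the 9 microRNA libraries, while PPP1R12A is the next largest fall.

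Among the catalytic subunits, PPP1CA (ENSG00000172531, chr11:67398183-67421183, minus strand), the alpha isoform, was at 119.2, 127.9, 138.7 and 142.7 CPM in miR-34a-RS libraries. It was at 121.8, 134.8, 132.4, 136.0 and 138.0 CPM in miR-34a-WT libraries and at 141.8, 155.2, 153.5, 155.2 and 176.1 CPM in control libraries. The highest miR-34a-RS library was above the lowest control library, while the miR-34a-WT libraries were all below control. PPP1CA fell by 0.24 on the log2 scale with miR-34a-RS (SE 0.06, edgeR adjusted p = 0.0021) and by 0.24 with miR-34a-WT (SE 0.06, edgeR adjusted p = 0.00118). It shares 228 exon bases with RAD9A, 186 with TBC1D10C and 316 with CARNS1, all on the opposite strand, and the library kit does not mark strand. Of these only RAD9A was well expressed, at 33.7 CPM in miR-34a-RS, 31.9 CPM in miR-34a-WT and 34.5 CPM in control, so the PPP1CA values are uncertain to that extent.

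PPP1CB (ENSG00000213639, chr2:28751640-28802940, plus strand), the beta or delta isoform that partners with the myosin phosphatase subunit PPP1R12A, averaged 208.5 ± 27.2 CPM (SD, n = 4) in miR-34a-RS, 218.8 ± 16.2 CPM (SD, n = 5) in miR-34a-WT and 195.7 ± 7.74 CPM (SD, n = 5) in control. Its log2 fold change with miR-34a-RS was 0.09 (SE 0.07, edgeR adjusted p = 0.303), and 1 library, replicate 1 at 248.6 CPM, stood above the others, which lay at 191.4 to 201.6 CPM. With miR-34a-WT it rose by 0.16 (SE 0.06, edgeR adjusted p = 0.0407), although its libraries at 202.3 to 238.6 CPM overlapped the control libraries at 189.9 to 209.2 CPM. This call rests on single libraries: it was lost without control replicate 1, 2, 4 or 5 (adjusted p = 0.0582, 0.0541, 0.0606 and 0.0673) and without miR-34a-WT replicate 1 or 3 (adjusted p = 0.115 and 0.0607). PPP1CB shares 460 exon bases with SPDYA on the same strand, which was under 1 CPM in all 3 group means.

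PPP1CC (ENSG00000186298, chr12:110719680-110742939, minus strand), the gamma isoform, averaged 412 ± 24.4 CPM (SD, n = 4) in miR-34a-RS, 409.1 ± 13.8 CPM (SD, n = 5) in miR-34a-WT and 394 ± 17.0 CPM (SD, n = 5) in control. Its 7mer-m8 lies at the very start of the 3′ UTR, and neither comparison with control passed the test, with log2 fold changes of 0.06 (SE 0.05, 95% interval -0.03 to 0.16) for miR-34a-RS and 0.05 (SE 0.04, 95% interval -0.04 to 0.14) for miR-34a-WT.

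PPP1R2 (ENSG00000184203, chr3:195514425-195543386, minus strand) encodes inhibitor-2, which like inhibitor-3 binds the catalytic subunit and blocks it. It was at 62.86, 52.70, 57.97 and 52.96 CPM in miR-34a-RS libraries and at 59.97, 60.31, 58.31, 58.45 and 59.74 CPM in miR-34a-WT libraries. The control libraries were at 45.34, 46.09, 48.82, 50.18 and 47.98 CPM, all below the microRNA libraries. PPP1R2 rose by 0.25 on the log2 scale with miR-34a-RS (SE 0.05, edgeR adjusted p = 0.000543) and by 0.32 with miR-34a-WT (SE 0.05, edgeR adjusted p = 1.24e-05). The genes of inhibitor-3 (PPP1R11, picked for its fall) and inhibitor-2 (PPP1R2) thus differed from control in opposite directions. PPP1R2 has several processed copies in the genome, and the 8 that were looked up each averaged at most 0.164 CPM in any group, but how reads shared with them were counted is not given in the sources used here.

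PPP1R7 (ENSG00000115685, chr2:241149576-241183652, plus strand) encodes SDS22, the leucine-rich repeat protein that forms the assembly complex with PPP1R11 and a catalytic subunit. It was at 88.40, 90.57, 83.72 and 86.37 CPM in miR-34a-RS libraries, at 84.36, 95.08, 83.38, 82.76 and 82.67 CPM in miR-34a-WT libraries and at 79.16, 71.13, 76.61, 75.34 and 75.47 CPM in control libraries. All 9 microRNA libraries were above all 5 control libraries. PPP1R7 rose by 0.21 on the log2 scale with miR-34a-RS (SE 0.05, edgeR adjusted p = 0.00165) and by 0.18 with miR-34a-WT (SE 0.05, edgeR adjusted p = 0.00283). PASK, on the opposite strand, shares 657 exon bases with PPP1R7 and was at 70.6 CPM in miR-34a-RS, 77.8 CPM in miR-34a-WT and 68.2 CPM in control, a level close to that of PPP1R7, so without strand the PPP1R7 values are uncertain.

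PPP1R8 (ENSG00000117751, chr1:27830778-27851676, plus strand) encodes NIPP1, a nuclear inhibitor and targeting subunit that binds spliceosome components. Its libraries were at 158.2, 164.5, 164.4 and 158.3 CPM in miR-34a-RS, at 155.3, 159.3, 170.0, 156.2 and 154.9 CPM in miR-34a-WT and at 137.9, 139.8, 141.2, 136.8 and 132.4 CPM in control. All microRNA libraries were above all control libraries, although the gene has the 8mer shown above, at bases 1125 to 1132 of a 3′ UTR of 1230 bases. The log2 fold change was 0.23 with miR-34a-RS (SE 0.04, edgeR adjusted p = 0.000102) and 0.21 with miR-34a-WT (SE 0.04, edgeR adjusted p = 0.000123). Of the 820 tested genes whose best match is an 8mer, 50.1% passed as lower with miR-34a-RS and 52.2% with miR-34a-WT. Of the 8831 genes with no match, 14% passed as lower with miR-34a-RS and 17.3% with miR-34a-WT.

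PPP1R10 (ENSG00000204569, chr6:30600400-30618612, minus strand) encodes PNUTS, the nuclear subunit that joins PP1 with WDR82 and TOX4 in a complex acting on RNA polymerase II, and it has been reported as a miR-34a target in mouse heart. Here it averaged 137.7 ± 6.73 CPM (SD, n = 4) in miR-34a-RS, 130.2 ± 2.45 CPM (SD, n = 5) in miR-34a-WT and 128.2 ± 2.66 CPM (SD, n = 5) in control, and the groups overlapped. With its 7mer-m8 at bases 822 to 828 of the 3′ UTR, the log2 fold change was 0.10 with miR-34a-RS (SE 0.04, 95% interval 0.02 to 0.19, edgeR adjusted p = 0.0613) and 0.02 with miR-34a-WT (SE 0.04, 95% interval -0.06 to 0.10, edgeR adjusted p = 0.700). The miR-34a-RS value passed the threshold as higher in 10 of 21 alternative analyses, among them DESeq2 (adjusted p = 0.0114) and RLE size factors (adjusted p = 0.0377). Among genes whose best match is a 7mer-m8, 36.7% passed as lower with miR-34a-RS and 42.0% with miR-34a-WT. WDR82 was higher in both comparisons, with log2 fold changes of 0.15 (SE 0.04, edgeR adjusted p = 0.00326) for miR-34a-RS and 0.15 (SE 0.04, edgeR adjusted p = 0.00192) for miR-34a-WT, while TOX4 passed in neither.

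PPP1R12A (ENSG00000058272, chr12:79773563-79935460, minus strand) encodes MYPT1, which brings PPP1CB to myosin. It was at 73.26, 66.85, 63.79 and 67.04 CPM in miR-34a-RS libraries and at 84.59, 76.29, 78.38, 73.18 and 80.00 CPM in miR-34a-WT libraries. In control libraries it was at 107.0, 103.6, 102.1, 96.07 and 96.09 CPM, above every microRNA library. PPP1R12A fell by 0.58 on the log2 scale with miR-34a-RS (SE 0.05, edgeR adjusted p = 2.62e-09) and by 0.36 with miR-34a-WT (SE 0.05, edgeR adjusted p = 1.24e-06). In percent of the control level, PPP1R12A fell by 32.95% with miR-34a-RS and fell by 22.3% with miR-34a-WT. Among the 1546 genes whose best match is a 6mer, as here, 28.5% passed as lower with miR-34a-RS and 30.5% with miR-34a-WT. The antisense transcript PPP1R12A-AS1 shares 406 exon bases and averaged at most 1.04 CPM in any group.

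Between the RS and WT forms, 1 of the 8 tested members passed, PPP1R12A as lower, beside 1.56% of all tested genes, 0.535% as lower and 1.03% as higher. The mean level of PPP1R12A was 67.7 ± 3.97 CPM (SD, n = 4) in miR-34a-RS and 78.5 ± 4.26 CPM (SD, n = 5) in miR-34a-WT, with 1 miR-34a-RS library at 73.26 CPM above the lowest miR-34a-WT library at 73.18 CPM. Its log2 fold change was -0.21 (SE 0.05, edgeR adjusted p = 0.0361). The call was lost in 9 of 21 alternative analyses: with upper-quartile factors (adjusted p = 0.0502), with those 2 groups alone in the fit (0.0597), and without control replicate 2 (0.0528), miR-34a-RS replicate 2 (0.121), 3 (0.165) or 5 (0.103), or miR-34a-WT replicate 1 (0.111), 3 (0.0871) or 5 (0.0825). The main fit and these 9 did not pair libraries by replicate number. Same-numbered miR-34a-RS and miR-34a-WT libraries deviated together, and with the replicate number as a block the log2 fold change of PPP1R12A was -0.23 (SE 0.04, edgeR adjusted p = 0.000138). The same block raised the calls over all genes to 625 higher and 629 lower, against 188 higher and 98 lower without it, and no other member passed in it. The remaining 7 members had log2 fold changes between -0.07 for PPP1CB and PPP1R2 and 0.08 for PPP1R10, with 95% intervals that all include 0.

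**Figure D3:**
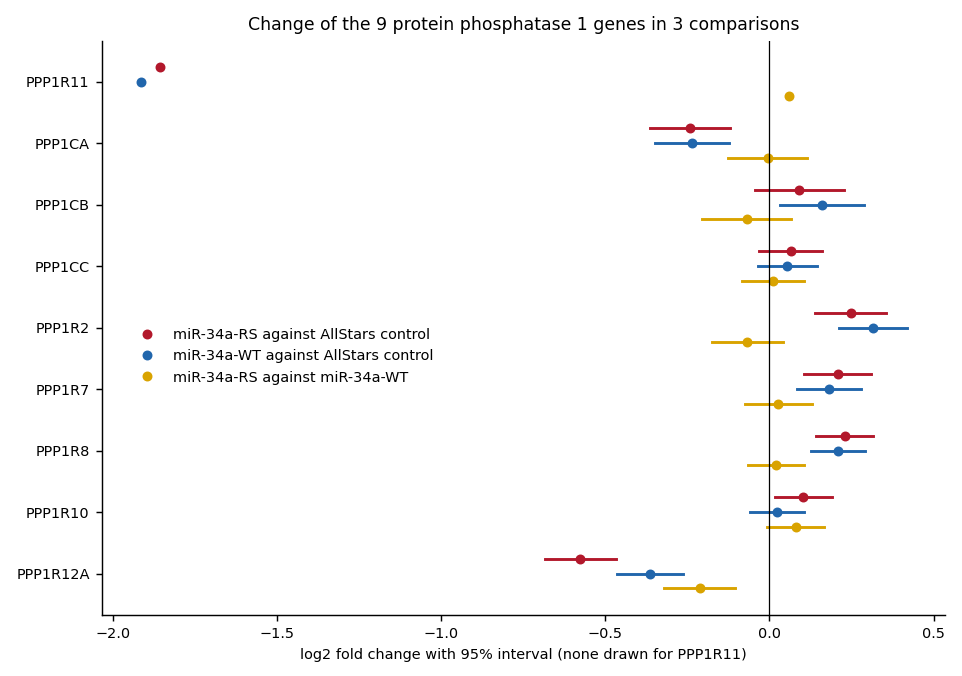
Log2 fold change (x axis) for the 9 members, with its 95% interval for all but PPP1R11, for miR-34a-RS against control (red), miR-34a-WT against control (blue) and miR-34a-RS against miR-34a-WT (yellow). PPP1R11 is near -1.9 in both comparisons with control, and PPP1R12A is the member whose interval between the 2 microRNA groups lies below 0.

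Levels were compared between genes per kilobase of merged exon length. PPP1R11 was the lowest of the 9 at 4.41 ± 0.108 CPM per kb (SD, n = 4) in miR-34a-RS and at 4.24 ± 0.150 CPM per kb (SD, n = 5) in miR-34a-WT libraries, while in control libraries it was 7th at 16 ± 0.441 CPM per kb (SD, n = 5), above PPP1R2 and PPP1R12A. PPP1CC, PPP1R8, PPP1CA, PPP1CB, PPP1R10, PPP1R7, PPP1R2 and PPP1R12A followed each other downward in both microRNA groups, from 59.7 to 5.68 CPM per kb in miR-34a-RS and from 59.2 to 6.58 CPM per kb in miR-34a-WT. In control the order was PPP1CA at 57.7, PPP1CC at 57.0, PPP1R8 at 48.8, PPP1CB at 34.0, PPP1R10 at 24.6, PPP1R7 at 19.98, PPP1R11 at 16, PPP1R2 at 9.30 and PPP1R12A at 8.46 CPM per kb. Neighbours whose libraries overlapped were PPP1CC with PPP1R8 in both microRNA groups, PPP1R10 with PPP1R7 in miR-34a-WT, and PPP1CA with PPP1CC and PPP1R2 with PPP1R12A in control. The order depends on the length used: by the longest transcript, control levels were 140.9 for PPP1CC and 93.2 CPM per kb for PPP1CA, and PPP1R2 at 13.8 was below PPP1R12A at 17.7.

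Summed per kilobase, the 3 catalytic genes were at 144.6 ± 3.64 CPM per kb (SD, n = 4) in miR-34a-RS, 146.1 ± 3.20 (SD, n = 5) in miR-34a-WT and 148.7 ± 4.42 (SD, n = 5) in control, and the 3 groups overlapped. PPP1CA made up 33.8% of the sum in miR-34a-RS (29.3% to 37.0% over libraries), 33.5% in miR-34a-WT (30.6% to 35.7%) and 38.8% in control (35.99% to 42.1%). For each 100 units of catalytic transcript per kilobase there were 3.05 ± 0.0959 units of PPP1R11 (SD, n = 4) in miR-34a-RS, 2.90 ± 0.0633 (SD, n = 5) in miR-34a-WT and 10.8 ± 0.280 (SD, n = 5) in control. For PPP1R7, its partner in the assembly complex, there were 15.97 ± 0.579 units (SD, n = 4) in miR-34a-RS, 15.5 ± 0.840 (SD, n = 5) in miR-34a-WT and 13.4 ± 0.583 (SD, n = 5) in control. The lower ratios of PPP1R11 to the catalytic genes and to PPP1R7 in both microRNA groups follow from the choice of PPP1R11 for its fall. The PPP1R7 values are also uncertain because of the exon bases shared with PASK. With the length of the longest transcript instead, a choice added after the data were seen, the catalytic sum was 268.7 CPM per kb in miR-34a-RS, 270.1 in miR-34a-WT and 274.1 in control. PPP1CC then made up 54.8% of it in miR-34a-RS (41.25% by merged exons), 54.15% in miR-34a-WT (40.5%) and 51.4% in control (38.4%), and PPP1R11 stood at 2.41 units in miR-34a-RS, 2.30 in miR-34a-WT and 8.56 in control. These are ratios of RNA, and protein was not measured.

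The other genes of the pathway were taken from 5 lists. Of 34 other PPP1R genes 26 could be tested, of which 6 were lower and 6 higher with miR-34a-RS and 7 lower and 6 higher with miR-34a-WT. These counts, and those of the lists after it, stand beside 18.4% lower and 16.2% higher of all tested genes with miR-34a-RS and 21.3% lower and 18.9% higher with miR-34a-WT, and list medians beside an all-gene median of -0.01 with miR-34a-RS and -0.02 with miR-34a-WT. PPP1R42 had the largest log2 fold changes, 2.16 (SE 0.26, edgeR adjusted p = 4.35e-07) with miR-34a-RS and 2.21 (SE 0.26, edgeR adjusted p = 1.26e-07) with miR-34a-WT, at a low level of 1.03 CPM in miR-34a-RS, 1.07 CPM in miR-34a-WT and 0.226 CPM in control. PPP1R42 shares 198 exon bases with COPS5 on the same strand, at 70.0 CPM, so its values are uncertain. PPP1R16A, a membrane-anchored relative of PPP1R12A, rose by 0.49 with miR-34a-RS (SE 0.06, edgeR adjusted p = 1.17e-06) and by 0.48 with miR-34a-WT (SE 0.06, edgeR adjusted p = 5.91e-07). It shares 2848 exon bases with a gene on the opposite strand at 7.01 CPM, so its values are uncertain too. The paralogs of PPP1R12A did not move as one: PPP1R12B rose by 0.22 with miR-34a-RS (SE 0.05, edgeR adjusted p = 0.00112) and by 0.28 with miR-34a-WT (SE 0.05, edgeR adjusted p = 3.34e-05), and PPP1R12C fell by 0.29 with miR-34a-RS (SE 0.07, edgeR adjusted p = 0.00134) and by 0.44 with miR-34a-WT (SE 0.06, edgeR adjusted p = 4.63e-06). PPP1R12B shares 2111 exon bases with SYT2 on the opposite strand, at 2.60 CPM. The list median was 0.02 with miR-34a-RS and 0.03 with miR-34a-WT.

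PPP1R15B, which brings PP1 to the translation factor eIF2 alpha, was the 1 gene of this list that passed between the RS and WT forms, lower by 0.22 on the log2 scale (SE 0.05, edgeR adjusted p = 0.0218). It averaged 170.5 ± 11.3 CPM (SD, n = 4) in miR-34a-RS, 198.4 ± 10.1 CPM (SD, n = 5) in miR-34a-WT and 172.1 ± 7.32 CPM (SD, n = 5) in control. The difference was thus a rise with miR-34a-WT, 0.20 against control (SE 0.05, edgeR adjusted p = 0.00102), that was not seen with miR-34a-RS (-0.01, SE 0.05, edgeR adjusted p = 0.862). Its call between the microRNAs was lost without miR-34a-RS replicate 2, 3 or 5 (adjusted p = 0.0744, 0.0924 and 0.113) or miR-34a-WT replicate 1 or 3 (0.0667 and 0.0871). With the replicate block, which raised the calls over all genes as given above, PPP1R15B stayed lower (-0.24, SE 0.03, edgeR adjusted p = 2.19e-05).

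Of 26 other PP1-binding proteins, all tested, 4 were lower and 9 higher with miR-34a-RS (all tested genes 18.4% and 16.2%) and 5 lower and 11 higher with miR-34a-WT (all tested genes 21.3% and 18.9%), with list medians of 0.09 for miR-34a-RS and 0.13 for miR-34a-WT. NEK2, a centrosomal kinase that PP1 counteracts, rose by 0.78 with miR-34a-RS (SE 0.04, edgeR adjusted p = 2.68e-13) and by 0.82 with miR-34a-WT (SE 0.04, edgeR adjusted p = 2.5e-14). KIF18A, a mitotic kinesin, rose by 0.36 with miR-34a-RS (SE 0.05, edgeR adjusted p = 5.67e-06) and by 0.48 with miR-34a-WT (SE 0.05, edgeR adjusted p = 2.36e-08). TPRN, which has an 8mer, fell by 0.70 with miR-34a-RS (SE 0.08, edgeR adjusted p = 3.49e-07) and by 0.80 with miR-34a-WT (SE 0.08, edgeR adjusted p = 1e-08). PHACTR4, which binds actin and PP1, fell by 0.36 with miR-34a-RS (SE 0.04, edgeR adjusted p = 3.11e-07) and by 0.45 with miR-34a-WT (SE 0.04, edgeR adjusted p = 2.18e-09). The values of TPRN and KIF18A are uncertain, since TPRN shares 90 exon bases with TMEM203 (47.3 CPM) on the same strand and KIF18A shares 61 with METTL15 (20.7 CPM) on the opposite strand. RRP1B, which brings PP1 to the nucleolus and has a 7mer-m8, fell with both and differed between them: it averaged 336.7 ± 13.2 CPM (SD, n = 4) in miR-34a-RS, 267.2 ± 10.4 CPM (SD, n = 5) in miR-34a-WT and 396.5 ± 7.32 CPM (SD, n = 5) in control. The log2 fold change of RRP1B between the RS and WT forms was 0.33 (SE 0.04, edgeR adjusted p = 2.4e-05), and RRP1B was the 1 gene of the list that passed without the replicate block. With the replicate block, 5 genes of this list were lower and 1 higher in that comparison, and KIF18A was 1 of the 5 (-0.13, SE 0.04, edgeR adjusted p = 0.0354). Among all genes, 18321 in the main fit, the block gave 629 lower and 625 higher there, against 98 lower and 188 higher without it.

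The assembly complex is released by p97, encoded by VCP, with adaptors that carry a SEP domain. VCP passed in neither comparison with control, with log2 fold changes of -0.07 (SE 0.04, edgeR adjusted p = 0.190) for miR-34a-RS and -0.08 (SE 0.04, edgeR adjusted p = 0.102) for miR-34a-WT. With the replicate block VCP passed as lower with miR-34a-WT (-0.08, SE 0.03, edgeR adjusted p = 0.0226). UBXN2B, which encodes the adaptor p37 and has a 7mer-A1, fell by 0.87 with miR-34a-RS (SE 0.07, edgeR adjusted p = 7.5e-11) and by 0.76 with miR-34a-WT (SE 0.06, edgeR adjusted p = 2.12e-10). It averaged 38.3 ± 4.49 CPM (SD, n = 4) in miR-34a-RS, 41.6 ± 2.49 CPM (SD, n = 5) in miR-34a-WT and 70.2 ± 3.93 CPM (SD, n = 5) in control. UBXN2A was higher, by 0.14 with miR-34a-RS (SE 0.04, edgeR adjusted p = 0.0129) and by 0.17 with miR-34a-WT (SE 0.04, edgeR adjusted p = 0.00151), and NSFL1C, which encodes p47, passed with miR-34a-WT at 0.12 (SE 0.04, edgeR adjusted p = 0.0221) but not with miR-34a-RS at 0.09 (SE 0.04, edgeR adjusted p = 0.108). The NSFL1C call was lost with no filter on low counts (adjusted p = 0.0634) and without miR-34a-WT replicate 5 (0.0563), and DESeq2 called NSFL1C with miR-34a-RS too (adjusted p = 0.0435). The list median was 0.01 with miR-34a-RS and 0.02 with miR-34a-WT, and none of the 4 genes passed between the RS and WT forms.

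Of the other genes of the PPP phosphatase family 12 of 13 were tested, with 3 lower and 3 higher with miR-34a-RS (median log2 fold change 0.05) and 3 lower and 5 higher with miR-34a-WT (median 0.10). In all, 6 of the 12 passed with miR-34a-RS, beside 34.6% of all tested genes, and 8 of the 12 with miR-34a-WT, beside 40.2%. PPP6C, the catalytic subunit of protein phosphatase 6, has a 7mer-A1 and averaged 101.0 ± 4.0 CPM (SD, n = 4) in miR-34a-RS, 76.7 ± 4.28 CPM (SD, n = 5) in miR-34a-WT and 146.5 ± 6.08 CPM (SD, n = 5) in control. It fell by 0.54 with miR-34a-RS (SE 0.05, edgeR adjusted p = 2.66e-09) and by 0.93 with miR-34a-WT (SE 0.05, edgeR adjusted p = 2.5e-14). The difference between the microRNAs was 0.40 (SE 0.05, edgeR adjusted p = 2.21e-05), and PPP6C was the 1 gene of the list that passed there without the replicate block. With the block PPP3R1 passed too, lower in miR-34a-RS by 0.13 (SE 0.04, edgeR adjusted p = 0.045). PPP3CB, a catalytic subunit of calcineurin, rose by 0.63 with miR-34a-RS (SE 0.04, edgeR adjusted p = 2.33e-11) and by 0.67 with miR-34a-WT (SE 0.04, edgeR adjusted p = 1.93e-12). PPP3R1, its regulatory subunit, fell by 0.34 with miR-34a-RS (SE 0.05, edgeR adjusted p = 1.67e-05) and by 0.21 with miR-34a-WT (SE 0.05, edgeR adjusted p = 0.00114). Of protein phosphatase 2A, the scaffold gene PPP2R1B fell by 0.29 with miR-34a-RS (SE 0.05, edgeR adjusted p = 4.03e-05) and by 0.19 with miR-34a-WT (SE 0.05, edgeR adjusted p = 0.00143). The catalytic gene PPP2CB passed as higher with miR-34a-WT (0.16, SE 0.04, edgeR adjusted p = 0.00514). PPP2CB did not pass with miR-34a-RS (0.05, SE 0.05, edgeR adjusted p = 0.447). PPP3CB shares 13 exon bases with PPP3CB-AS1 at 3.68 CPM, and PPP2R1B 150 with SIK2 at 67.4 CPM, both on the opposite strand.

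Of 10 genes that encode myosin light chains or take part in the control of their phosphorylation, 9 were tested. With miR-34a-RS 2 were lower and 4 higher (median log2 fold change 0.06), and with miR-34a-WT 2 were lower and 3 higher (median 0.05). In all, 6 of the 9 passed with miR-34a-RS, beside 34.6% of all tested genes, and 5 of the 9 with miR-34a-WT, beside 40.2%. The kinases ROCK1, which phosphorylates MYPT1, and MYLK, the myosin light chain kinase, were the 2 that fell. ROCK1 fell by 0.37 with miR-34a-RS (SE 0.06, edgeR adjusted p = 5.43e-05) and by 0.25 with miR-34a-WT (SE 0.06, edgeR adjusted p = 0.00114). MYLK fell by 0.57 with miR-34a-RS (SE 0.09, edgeR adjusted p = 1.97e-05) and by 0.54 with miR-34a-WT (SE 0.09, edgeR adjusted p = 1.26e-05). RHOA, the GTPase that activates ROCK1, rose by 0.22 with miR-34a-RS (SE 0.05, edgeR adjusted p = 0.000674) and by 0.30 with miR-34a-WT (SE 0.04, edgeR adjusted p = 5.72e-06). MYL12A, a light chain gene, rose by 0.31 with miR-34a-RS (SE 0.06, edgeR adjusted p = 7.85e-05) and by 0.29 with miR-34a-WT (SE 0.05, edgeR adjusted p = 8.26e-05). Its close relative MYL12B rose by 0.23 with miR-34a-RS (SE 0.04, edgeR adjusted p = 0.000106) and by 0.21 with miR-34a-WT (SE 0.04, edgeR adjusted p = 0.000147). MYL12A and MYL12B are near-identical neighbours, so how reads were split between them is uncertain. RHOA shares 214 exon bases with TCTA (37.1 CPM), and MYLK 133 with MYLK-AS1 (1.77 CPM), on opposite strands. No gene of this list passed between the RS and WT forms without the replicate block, and with it ROCK1 was lower by 0.14 (SE 0.04, edgeR adjusted p = 0.0116).

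Of the 24 genes named from these lists 12 had a seed match of some class in the 3′ UTR. Of those 12, 9 passed as lower and 1 as higher with miR-34a-RS, and 9 as lower and 2 as higher with miR-34a-WT. PPP1R12B, which has a 7mer-m8, rose with both, PPP1R15B, which has a 7mer-A1, rose with miR-34a-WT, and VCP, which has a 7mer-A1, passed in neither. Of the 12 with no match, 1 passed as lower, PPP1R12C, and 9 as higher with miR-34a-RS, and 1 as lower, again PPP1R12C, and 11 as higher with miR-34a-WT. These genes were chosen by their p-values, which largely set that they passed, so the counts describe them alone. By match class, 28.5% (6mer) to 50.1% (8mer) of all tested genes passed as lower with miR-34a-RS. With miR-34a-WT the shares were 30.5% (6mer) to 52.2% (8mer). Of tested genes with no match, 14% passed as lower with miR-34a-RS and 17.3% with miR-34a-WT.

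**Figure D4:**
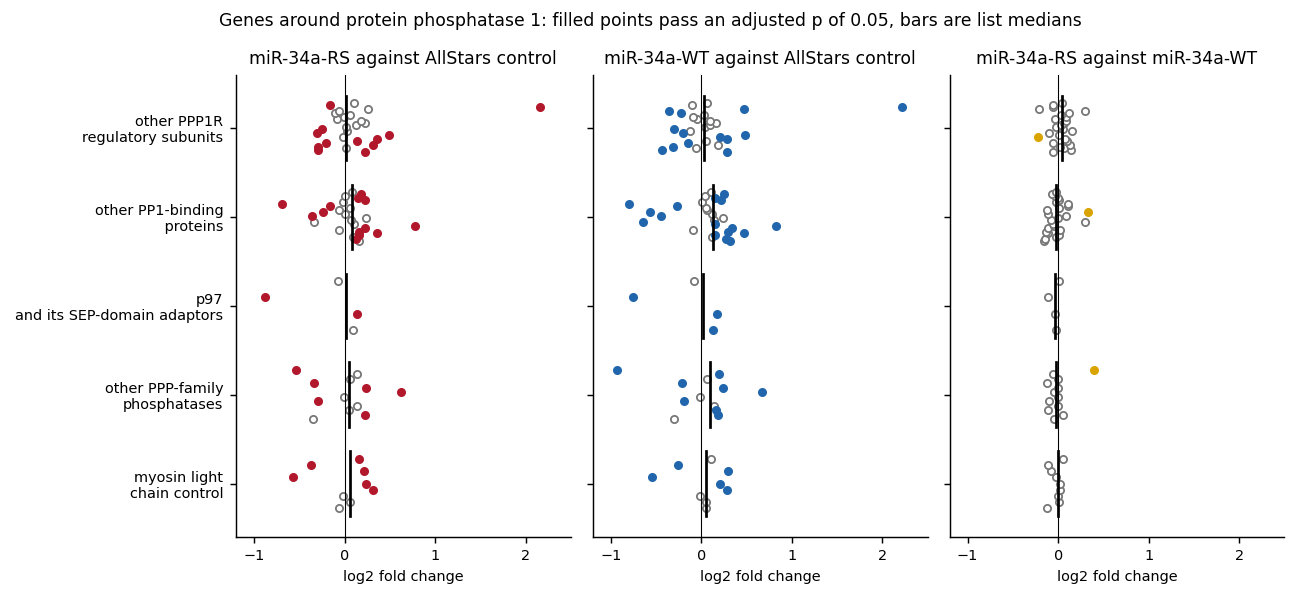
Log2 fold change (x axis) of every tested gene on 5 lists around PP1, in miR-34a-RS against control, miR-34a-WT against control and miR-34a-RS against miR-34a-WT; filled points pass an adjusted p of 0.05 and bars are medians. PPP1R42 lies above 2 in both comparisons with control, and RRP1B at 0.33 and PPP6C at 0.40 are the filled points above 0 between the microRNA groups.

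The 5 genes whose profile over the 14 libraries was most like that of PPP1R11 were E2F5, GRN, SMPD1, SNX12 and CDK6, by the root mean square difference of log2 CPM centred per gene, among genes with a mean of at least 5 CPM. The differences were 0.134 for E2F5, 0.162 for GRN, 0.170 for SMPD1, 0.170 for SNX12 and 0.171 for CDK6. These genes were chosen by their likeness, so their values are a description. E2F5, an E2F family transcription factor, averaged 13.1 ± 0.672 CPM (SD, n = 4) in miR-34a-RS, 13.3 ± 0.798 CPM (SD, n = 5) in miR-34a-WT and 41.95 ± 1.498 CPM (SD, n = 5) in control, with an 8mer in its 3′ UTR and 969 exon bases shared with RBIS on the opposite strand at 23.9 CPM. GRN, which encodes progranulin, averaged 66.5 ± 4.35 CPM (SD, n = 4) in miR-34a-RS, 69.1 ± 2.02 CPM (SD, n = 5) in miR-34a-WT and 209.7 ± 18.5 CPM (SD, n = 5) in control, with no seed match in its 3′ UTR. SNX12, with an 8mer, was lower in miR-34a-RS at 24.3 ± 0.958 CPM (SD, n = 4) than in miR-34a-WT at 28.9 ± 1.96 CPM (SD, n = 5), against 86.1 ± 2.32 CPM (SD, n = 5) in control. SMPD1 and CDK6 each had a 7mer-m8 as their best match. Their log2 fold changes ran from -1.83 to -1.56 with miR-34a-RS and from -1.71 to -1.57 with miR-34a-WT, so PPP1R11 was the lowest of the 6 in both, although SNX12 at -1.83 with miR-34a-RS (SE 0.05) lay within 1 SE of it.

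**Figure D5:**
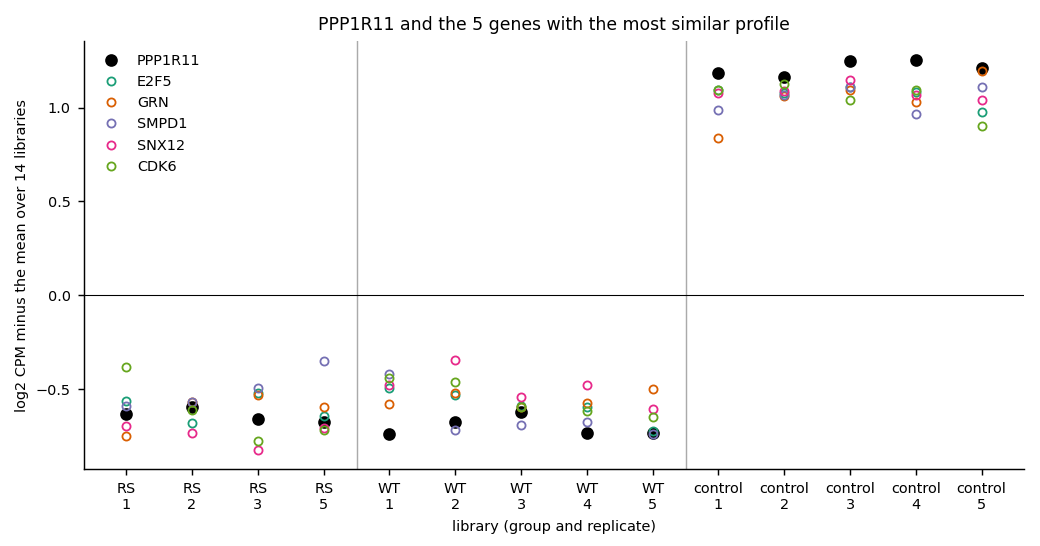
Log2 CPM minus the mean over 14 libraries (y axis) for PPP1R11 (black) and the 5 genes most like it (open points), in each miR-34a-RS (RS), miR-34a-WT (WT) and control library. All 6 genes lie below 0 in the 9 microRNA libraries and above 0 in the 5 control libraries.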

How the data were processed

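The authors deposited raw counts of reads, unscaled, for 63140 genes in 14 libraries made with a TruSeq v2 kit. STAR 2.7.11a, Subread 2.0.3 with featureCounts, edgeR 3.42.4 and build GRCh38 are named in the submitters' processing notes; annotation release and strand setting are not given in the sources used here. All libraries were mapped to groups by title.

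Genes were filtered with filterByExpr (minimum count 10) and tested with edgeR 4.0.16 in R 4.3.3: TMM factors, 3 group means in 1 robust quasi-likelihood fit, Benjamini-Hochberg adjustment over 18321 genes, threshold 0.05. The common biological coefficient of variation was 0.062. No replicate pair agreed within sampling noise (chi-square per degree of freedom 2.718 to 14.279). Log2 CPM used a prior count of 2. Intervals are at the 95% level. The test was tried on simulated counts with 200 changed genes.

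Matches were sought in the longest 3′ UTR per gene of GENCODE 29, whose identifiers hold 99.71% of the counts; the miRNA sequence is from RefSeq (GRCh38.p14). Figures used matplotlib 3.10.9.

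The members and lists were chosen with earlier results of these data known. Named are the 9 members, up to 5 genes per list by the smallest adjusted p against control and the 5 genes most like PPP1R11; WDR82 and TOX4 were named after their values were seen. Same-numbered libraries of miR-34a-RS and miR-34a-WT deviated together over 9901 genes (correlations 0.396 to 0.779), so numbers pair libraries in that comparison, from the data alone. The main test did not use this pairing, and results with the replicate number as a block are given as alternatives. The result of 1 marker list is not reported here.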

Additional observations from a re-analysis of the deposited data

Results flagged for a closer look

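Each of the 9 members was examined in 3 groups, 27 groups of libraries in all, for a library far from the others of its group, and chance alone marks about 1 group in 20. There were 2 such libraries. PPP1R7 in miR-34a-WT replicate 2 was at 95.08 CPM, where the other 4 miR-34a-WT libraries lay at 82.67 to 84.36 CPM, and the gap was 0.864 of the range of the group. PPP1CB in control replicate 3 was at 209.2 CPM, where the other control libraries lay at 189.9 to 194.2 CPM, and the gap was 0.777 of the range. PPP1R7 stayed higher than control with both microRNAs whichever library was left out. The PPP1CB call with miR-34a-WT held without control replicate 3.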

How the results depend on the processing

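PPP1R11 had log2 fold changes of -1.873 to -1.835 with miR-34a-RS, -1.92 to -1.893 with miR-34a-WT and 0.0431 to 0.0788 between them over 21 alternatives. Of 336 values of the other 8 members with 1 library left out, 318 stayed on their side of the threshold, 13 lost the call and 5 gained it; of 168 under other settings, 161 stayed, 2 lost it and 5 gained it. No called value turned its sign, and 8 and 3 uncalled ones did, all of PPP1CA or PPP1CC between the microRNAs. The members that changed were PPP1CB, PPP1R10 and PPP1R12A.

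Between the RS and WT forms, the replicate block gave 625 genes higher and 629 lower, fitting those 2 groups alone gave 60 lower, and DESeq2 gave 268 higher and 220 lower. Leaving out 1 library gave 111 to 391 higher (391 without miR-34a-RS replicate 1, 112 and 111 without 2 and 3, 123 and 120 without miR-34a-WT replicates 1 and 3). It gave 31 to 339 lower (339 without miR-34a-RS replicate 1, 31, 31 and 40 without 2, 3 and 5, and 52, 31 and 62 without miR-34a-WT replicates 1, 3 and 4). The count of other members lower there was 0 with upper-quartile factors and with 2 groups alone, and 0 to 1 with 1 library left out.

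On the lists, the block gave 10 PPP1R genes and 5 PPP-family genes higher with miR-34a-RS and 2 p97 genes lower with miR-34a-WT. Between the microRNAs it gave 5 PP1-binding, 1 PPP-family and 1 myosin gene lower. Over all genes the block gave 3678 higher with miR-34a-RS (2968 without it) and 4648 lower with miR-34a-WT (3904 without it). Between the microRNAs 629 of all genes were lower with it (98 without it). With no filter 5 PPP-family genes were higher with miR-34a-RS and 1 p97 gene with miR-34a-WT. DESeq2 gave 2 p97 genes higher with miR-34a-RS and 1 PP1-binding gene lower between the microRNAs. With 1 library left out, p97 genes higher with miR-34a-WT were 1 to 2; with miR-34a-RS, PPP1R genes lower were 3 to 6 (3 without replicate 5) and PPP-family genes higher 3 to 5 (5 without replicate 1). Between the microRNAs PPP1R genes lower were 0 to 1 and PP1-binding genes lower 0 to 2 (2 without miR-34a-RS replicate 1). Against control, same-numbered libraries correlated by -0.203 to 0.599 with miR-34a-WT (mean 0.324, other pairs -0.077). With miR-34a-RS they correlated by -0.057 to 0.521 (mean 0.273, other pairs -0.069). The means were above those of other pairs, but some same-numbered pairs fell below 0, so the numbers were not read as pairs there. With the block PPP1R10 passed with miR-34a-RS. The causes were not tested. PPP1R11 rests on 270 to 403 counts per microRNA library.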
